A study of Mus musculus with 8 samples.

Results

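Neurotrophins are secreted growth factors of the nervous system, and 5 genes of this family were followed here: the ligands Bdnf and Ntf3 (neurotrophin-3) and the receptors Ntrk2 (TrkB), Ntrk3 (TrkC) and Ngfr (p75). They were chosen by symbol as a family, not by measured values, and are 5 of 17836 genes in one count table and 5 of 15769 in the other. The data are single-cell RNA counts from frontal isocortex of mice at postnatal day 7, in a study of the transcription factor Foxp2. Cells were sorted for the reporter Drd1a-tdTomato (line 6, a bacterial artificial chromosome transgene, called D1Tom below) or for golli-τ-eGFP (called GTE below). Each sort has 2 control and 2 conditional knockout (cKO) libraries. Controls carried the reporter and Foxp2 flox/flox alleles without Cre, and cKO littermates carried Emx1-Cre in addition, so both groups carry the floxed alleles and the reporter. Emx1-Cre acts in the lineage of the dorsal telencephalon, which gives rise to cortical excitatory neurons and glia but not to most cortical interneurons. In D1Tom, both controls and cKO 1 were female and cKO 2 was male. In GTE, the sample labels give both controls and cKO 1 as male and cKO 2 as female, but the protocol text there repeats the D1Tom preparation days and sexes, so the GTE sexes are uncertain and its preparation days unknown. Lines had been backcrossed to C57BL/6J.

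BDNF signals mainly through the tyrosine kinase receptor TrkB, and neurotrophin-3 mainly through TrkC. The p75 receptor binds every mature neurotrophin and, more tightly, their uncleaved precursors. In cortex BDNF is made by excitatory neurons in proportion to their activity, and TrkB occurs in neurons in its full-length form and in astrocytes mostly in a truncated form without the kinase. Such forms share a gene symbol, so these counts per gene cannot separate them.

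In the GENCODE M21 annotation of GRCm38, Bdnf (ENSMUSG00000048482.14) lies at chr2:109674700-109727007 on the plus strand with 11 transcripts, and Ntf3 (ENSMUSG00000049107.13) at chr6:126101412-126166910 on the minus strand with 3 transcripts. Ntrk2 (ENSMUSG00000055254.15) lies at chr13:58806569-59133970 on the plus strand with 10 transcripts. Ntrk3 (ENSMUSG00000059146.12) lies at chr7:78175959-78738012 and Ngfr (ENSMUSG00000000120.6) at chr11:95568818-95587735, both on the minus strand, with 20 transcripts and 1 transcript. RefSeq promoter windows on GRCm38.p6, from 250 bases before to 50 after a start, numbered 11 for 4 of the 5 genes: 7 for Bdnf, 2 for Ntf3 and 1 each for Ngfr and Ntrk2. They were searched on both strands for TGTTTAC and TATTTAT, letters that forkhead factors such as FOXP2 bind, and for TGACGT, the core of the cAMP response element. TGTTTAC is present in 3.65%, TATTTAT in 5.60% and TGACGT in 7.51% of all 32851 windows. None of the 11 windows held a forkhead motif. TGACGT was present in 1 of them, at a start inside Bdnf. The 250 bases before that start and before the start inside Ntf3 are shown, 5′ to 3′ on the gene's strand, because both ligands were lower in both D1Tom cKO libraries, as was the receptor Ngfr, whose window is not shown. Capitals mark this match, here as ACGTCA on the strand shown.
Bdnf promoter, chr2:109692186-109692435, plus strand: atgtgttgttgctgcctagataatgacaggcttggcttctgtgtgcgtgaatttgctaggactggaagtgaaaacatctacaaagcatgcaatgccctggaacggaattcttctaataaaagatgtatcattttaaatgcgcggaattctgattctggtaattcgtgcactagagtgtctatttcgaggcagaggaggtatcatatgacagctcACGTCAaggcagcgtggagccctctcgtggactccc
Ntf3 promoter, chr6:126164961-126165210, minus strand: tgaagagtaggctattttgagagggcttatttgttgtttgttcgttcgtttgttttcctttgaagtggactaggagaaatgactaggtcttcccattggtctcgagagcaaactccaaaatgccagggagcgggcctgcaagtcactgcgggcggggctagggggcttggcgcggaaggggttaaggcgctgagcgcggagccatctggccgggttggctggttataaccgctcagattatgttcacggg
The Bdnf stretch is the start that neuronal activity is known to use through the factor CREB. Counts per gene do not say which start a transcript used, and a match of letters is not evidence of binding.

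The D1Tom libraries held 2395 to 3206 cells and 27323298 to 36379194 counts each, with medians of 7198 to 12815 counts per cell. The GTE libraries held 1440 to 3948 cells, 4878370 to 6092396 counts and medians of 1085.5 to 2982, so the members were measured much less precisely there. Clustering without the members gave clusters called "-like" only where at least 3 fixed markers were raised 2-fold or more. Neuron-like clusters held 34.7% of D1Tom cells but 1.13% of GTE cells, and 74.1% of GTE cells stayed unnamed. The vesicular glutamate transporter gene Slc17a7 stood at 90.8 to 119 CPM (counts per 1000000 counts) in D1Tom and 8.88 to 36.7 in GTE. The neuron genes Tubb3, Rbfox3, Neurod2, Gad1 and Gad2 were likewise lower in every GTE library than in any D1Tom library. Tubb3, for example, stood at 503 to 526 in D1Tom and 48.9 to 280 in GTE. The neuron genes Neurod6, Tbr1 and Snap25 overlapped between the sorts. The neuron gene Snap25 stood at 321 to 411 in D1Tom and 147 to 428 in GTE. The astrocyte gene Aqp4 stood at 315 to 427 in D1Tom and 250 to 711 in GTE, and Aldh1l1 at 39.0 to 62.8 and 22.5 to 35.1. The oligodendrocyte precursor marker Olig1 stood at 289 to 416 in D1Tom and 620 to 1757 in GTE, whereas Pdgfra, Slc1a3 and Gja1 overlapped. The label of neurons was thus not borne out in GTE by the neuron-like share or by Slc17a7, Tubb3, Rbfox3, Neurod2, Gad1 and Gad2. The neuron genes that overlapped and the astrocyte genes do not decide it. Foxp2 itself was at 36.3 and 39.1 CPM in D1Tom controls and 26.5 and 19.4 in cKO. In D1Tom control 1, genes that respond to dissociation summed to 1280 CPM against 218 to 252 in the other libraries. Any pair of libraries of a sort shared 4 to 27 cell barcodes.

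In D1Tom, none of the 5 members passed the test between genotypes when counts were summed over all cells of a library (edgeR quasi-likelihood test, Benjamini-Hochberg adjusted p = 0.998 for each). No gene passed among the 14508 tested (0.0%). At an unadjusted p under 0.05 stood 320 genes, of which Ntf3 was the only member, and DESeq2 called 20 genes (0.138%), of which Ntf3 again was the only member. Bdnf, Ntf3 and Ngfr were lower in both cKO libraries than in both controls, which is 3 of 5 members against 13.7% of all genes, and no member was higher in both, against 9.7% of all genes (23.4% in either direction). The members' median log2 fold change was -0.38, and that of all genes was -0.01.

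Ntf3, the ligand of TrkC, showed the widest gap between genotypes among the members. Its level was 17.7 and 13.2 CPM in D1Tom controls 1 and 2 and 7.02 and 4.43 CPM in cKO 1 and 2. The groups did not overlap, at means of 15.5 ± 3.22 in controls and 5.72 ± 1.83 in cKO (SD, n = 2 each). Libraries of one number were prepared on one day, and the gap had the same direction on both days, 17.7 against 7.02 and 13.2 against 4.43 CPM. On the log2 scale the difference was -1.38 (SE 0.24), and edgeR gave a p of 0.00154 before and 0.998 after adjustment over 14508 genes. DESeq2 gave the same -1.38 (SE 0.31) with an adjusted p of 0.0104, so the call depends on the tool. Control 1, in which dissociation genes were raised, had the highest Ntf3 level, and without it the log2 fold change was -1.21 (edgeR adjusted p = 1.00). With the preparation day as a block, edgeR gave -1.39 and an adjusted p of 0.152. Ntf3 was counted in 183 of 3206, 183 of 2395, 71 of 2812 and 82 of 3081 cells, that is 5.71% and 7.64% of control and 2.52% and 2.66% of cKO cells. In sums over all cells, fewer cells of a type and less RNA per cell cannot be told apart.

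**Figure D1:**
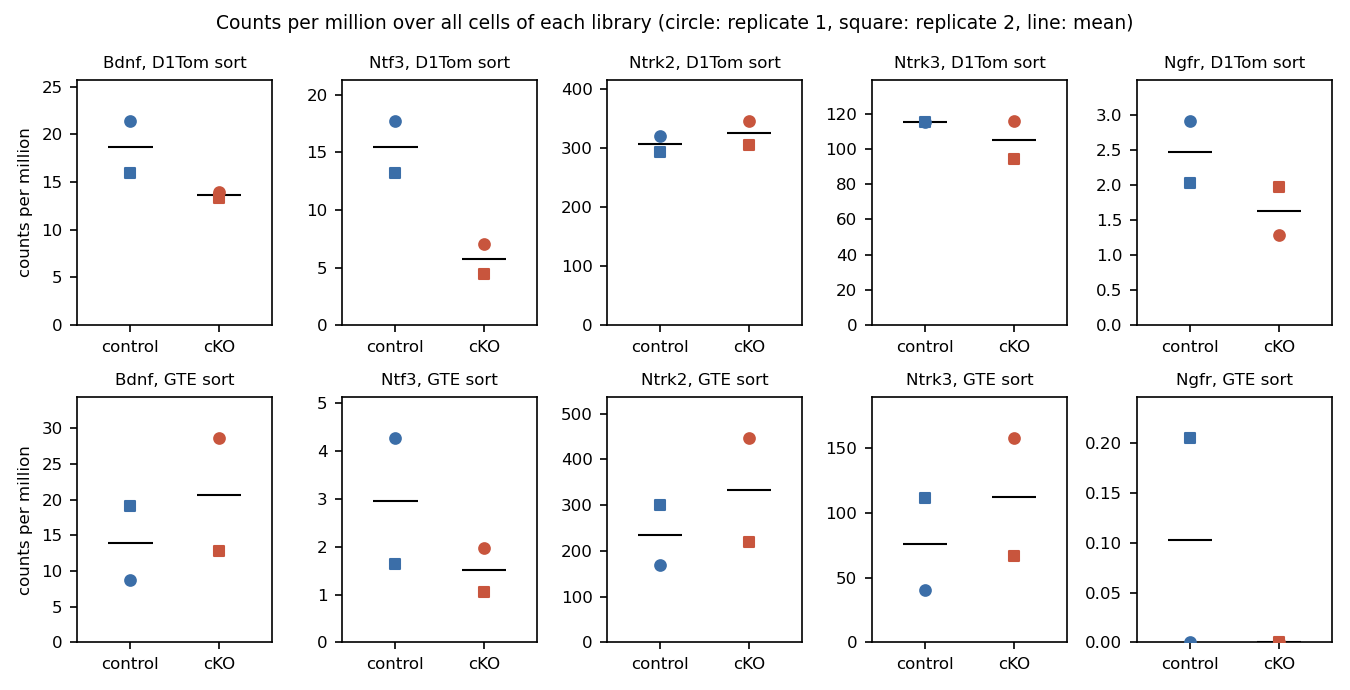
Level of each gene in CPM over all cells, 1 point per library (circle, replicate 1; square, replicate 2; line, group mean), for the D1Tom and GTE sorts. D1Tom Ntf3 separates at 13.2 CPM or more in controls and 7.02 or less in cKO, whereas the GTE groups overlap for the 4 genes tested there.

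Upper layer-like neurons, superficial cells that project mainly within the cortex, held most of the Ntf3 counts. They carried 74.4% and 71.9% of the Ntf3 counts of controls 1 and 2, 60.9% of those of cKO 1 and 34.7% of those of cKO 2. Within these cells Ntf3 was at 83.4 and 78.6 CPM in controls and 52.2 and 43.6 CPM in cKO, again without overlap, at means of 81.0 ± 3.43 and 47.9 ± 6.06 (SD, n = 2 each). For comparison, 12.9% of the 11157 genes tested in these cells were lower in both cKO libraries and 0.0% were called. The log2 fold change was -0.77 (SE 0.17; edgeR adjusted p = 1.00). Ntf3 was counted in 43.2% and 41.8% of control and in 36.6% and 29.3% of cKO upper layer-like cells. After each cell was thinned to 1000 counts, which left out none of the 666 cells, these shares were 5.79%, 5.86%, 4.30% and 5.17%, with exact binomial intervals that overlap throughout (1.08% to 14.4% in cKO 2). In endothelial-like cells, taken as a rough comparison for free RNA, 4 of 267 cells had a count before thinning. The median was 19556 counts per endothelial-like cell against 20570 in upper layer-like cells. In this endothelial-like cluster 8 of 8 mural and 5 of 5 erythroid markers were raised too. Whether its counts of the members are free RNA or its own was not tested.

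Upper layer-like cells were fewer in both cKO libraries than in both controls, as Ntf3 was lower there. Between the controls, their share was larger in control 2 while Ntf3 was higher in control 1. They were 259 of 3206 and 256 of 2395 cells in controls and 93 of 2812 and 58 of 3081 cells in cKO, which is 8.08%, 10.7%, 3.31% and 1.88%. The summed level of all 10 upper layer markers over all cells differed less, at 848 and 895 CPM in controls and 821 and 765 CPM in cKO. The 9 excitatory neuron markers summed to 1005, 985, 821 and 586 CPM. When each cell type's share of a library's counts was held at its mean over the 4 libraries, Ntf3 came to 11.9 and 12.7 CPM in controls and 7.72 and 7.90 CPM in cKO, a log2 ratio of means of -0.66 against -1.43 as observed. When instead each type's own Ntf3 level was held at its mean, the log2 ratio was -0.81. Neither quantity alone gave the observed ratio. With upper layer-like cells chosen by marker counts alone (308, 262, 142 and 80 cells), Ntf3 stood at 95.4, 50.1, 40.9 and 49.2 CPM, with a log2 fold change of -0.73. The cKO libraries were then still below both controls, though cKO 2 and control 2 were nearly equal.

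**Figure D2:**
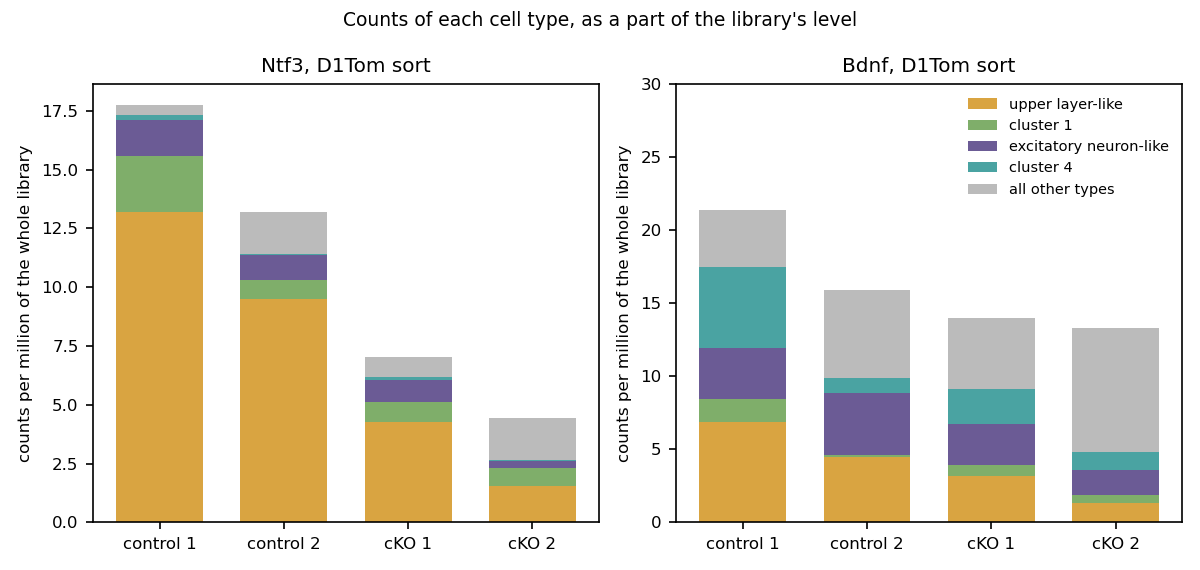
Stacked bars give, for the 4 D1Tom libraries, the part of the library's Bdnf and Ntf3 level (CPM of the whole library) that came from each cell type. The upper layer-like part of Ntf3 is 74.4% of the bar in control 1 and 34.7% in cKO 2, while Bdnf is spread over several types.

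Across the other types, Ntf3 was at 50.4, 74.7, 21.6 and 55.0 CPM in cluster 1 (controls 1 and 2, cKO 1 and 2), an unnamed cluster of 895 cells with 5 of 10 upper layer markers raised and a median of 3150 counts per cell. Its range overlapped that of upper layer-like cells, so the order of these levels is not fixed. Excitatory neuron-like cells followed at 14.5, 6.06, 8.43 and 3.74 CPM, and every further type averaged 3.94 CPM or less. Ntf3 passed the filter on low counts in 3 of 12 types and had a negative log2 fold change in each, -0.77 in upper layer-like cells, -0.83 (SE 0.43) in cluster 1 and -0.68 in excitatory neuron-like cells. Only in upper layer-like cells of these 3 were both cKO libraries below both controls.

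Bdnf, the ligand of TrkB, was more widely spread over cell types and differed less between genotypes. Over all D1Tom cells it stood at 21.4 and 15.9 CPM in controls and 13.97 and 13.3 CPM in cKO. The groups did not overlap, but the controls lay further from each other than control 2 lay from cKO 1. The means were 18.7 ± 3.90 and 13.6 ± 0.458 (SD, n = 2 each), and the log2 fold change was -0.38 (SE 0.19; edgeR adjusted p = 0.998). Control 1, the higher of the controls, was also the library with raised dissociation genes: Fos was at 539 CPM there and at 50.8 to 61.9 CPM in the others. Its part in the Bdnf level was not tested, and without control 1 the Bdnf log2 fold change was -0.21. With type shares of counts held, Bdnf came to 16.9 and 15.3 CPM in controls and 14.2 and 16.7 CPM in cKO, which overlap, at a log2 ratio of -0.06.

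Upper layer-like cells had the highest mean Bdnf of the named types, at 43.6, 37.3, 38.9 and 37.4 CPM, which differ by less than the spread between the controls. Cluster 4, unnamed because 4 of 7 radial progenitor and 9 of 10 astrocyte markers were raised in it, stood at 41.2, 26.9, 28.9 and 23.6 CPM. Excitatory neuron-like cells stood at 32.9, 24.4, 25.3 and 22.0 CPM, and layer 5 pyramidal tract-like cells, which project below the cortex, at 21.1, 24.6, 23.5 and 30.3 CPM. Cluster 1 stood at 33.0, 12.4, 18.2 and 41.9 CPM, from 57, 5, 21 and 16 counts. The ranges of these last 4 types overlapped, and those of clusters 4 and 1 also reached that of upper layer-like cells. Layer 6 corticothalamic-like cells were far lower, at 1.51 to 8.93 CPM, as were caudal interneuron-like cells at 0 to 4.87 CPM. Upper layer-like cells held 25.5%, excitatory neuron-like cells 19.3% and cluster 4 16.1% of all Bdnf counts. Between genotypes, Bdnf was tested in 10 of 12 types with 6 negative and 4 positive log2 fold changes, from -0.98 in cluster 6, which haemoglobin and mitochondrial genes led, to 0.37.

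The ligands were partly found in the same cells. Of cells with an Ntf3 count, 33.3%, 27.9%, 33.8% and 25.6% also had a Bdnf count in control 1, control 2, cKO 1 and cKO 2. Of cells with a Bdnf count, 19.9%, 16.8%, 13.6% and 7.50% had an Ntf3 count, in the same order.

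Ntrk2, the receptor of BDNF, was present in nearly every type and did not separate the genotypes over all cells. It stood at 320 and 293 CPM in D1Tom controls and 346 and 305 CPM in cKO, which overlap, at a log2 fold change of 0.15 (SE 0.16; edgeR adjusted p = 0.998). It was counted in 75.4%, 86.4%, 71.9% and 79.9% of cells. Cluster 1 had the highest mean of the fitted types, at 564, 592, 639 and 464 CPM. Cluster 4 stood at 483, 379, 498 and 399 CPM, and astrocyte-like cells, the highest of the named fitted types, at 445, 398, 411 and 372 CPM. The astrocyte range overlapped that of cluster 4. Upper layer-like cells had the lowest mean of the named fitted types, at 251, 241, 255 and 252 CPM, a level that hardly varied between libraries. The ranges of Cajal-Retzius-like cells (196 to 330 CPM) and caudal interneuron-like cells (235 to 309 CPM) enclosed these values, so this order is not fixed. Endothelial-like cells, with too few cells to be fitted, stood at 14.4 to 98.2 CPM.

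After thinning to 1000 counts, Ntrk2 was counted in 28.7% of 1422 astrocyte-like cells (exact 95% binomial interval 26.4% to 31.1%) and in 7.49% of 267 endothelial-like cells (4.64% to 11.3%). Before thinning the shares were 90.2% and 47.2%, with medians of 9019 and 19556 counts per cell. Astrocyte-like cells thus exceeded the endothelial level despite the lower depth. Layer 5 pyramidal tract-like cells reached 31.6% (26.2% to 37.3%), so astrocytes did not stand above this neuron type by share of cells. Between genotypes Ntrk2 was tested in all 12 types with 9 positive and 3 negative log2 fold changes between -0.08 and 0.20. Both cKO libraries were above both controls in 2 types and below in 0. These were layer 6 corticothalamic-like cells (276 and 353 against 356 and 374 CPM) and upper layer-like cells (251 and 241 against 255 and 252). Of all genes tested in these types, 16.1% and 17.1% were above both controls.

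Ntrk3, the receptor of neurotrophin-3, had its highest levels in layer 6 corticothalamic-like and layer 5 pyramidal tract-like neurons and in cluster 1. Over all D1Tom cells it stood at 115 and 115 CPM in controls and 116 and 94.4 CPM in cKO, at a log2 fold change of -0.07 (SE 0.14; edgeR adjusted p = 0.998), and the groups overlapped. Layer 6 corticothalamic-like cells, which project to the thalamus, had 216, 206, 242 and 213 CPM. Cluster 1 had 227, 187, 224 and 220 CPM and layer 5 pyramidal tract-like cells 216, 214, 210 and 190 CPM. The ranges of these 3 types overlapped, so their order is not fixed. Oligodendrocyte precursor-like cells followed at 173, 139, 190 and 117 CPM and upper layer-like cells at 123, 127, 139 and 143 CPM. Near-projecting-like cells, another deep layer type but with too few cells to be fitted, were low at 38.2, 50.0, 41.5 and 67.1 CPM. Endothelial-like cells stood at 7.21 to 18.9 CPM. After thinning, 20.5% of layer 6 corticothalamic-like cells and 22.3% of layer 5 pyramidal tract-like cells had a count, against 0.749% of endothelial-like cells. Before thinning 74.4%, 85.8% and 18.4% had one, with medians of 13835, 22156 and 19556 counts per cell.

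In astrocyte-like cells Ntrk3 stood at 46.1 and 75.3 CPM in controls and 96.1 and 87.3 CPM in cKO. Both cKO libraries were above both controls, as were 14.3% of the 11540 genes tested in that type. The log2 fold change was 0.63 (SE 0.29; edgeR adjusted p = 0.921). The difference did not pass the test with all libraries. Leaving out control 2 gave 1.03 (edgeR adjusted p = 0.00137), but that fit called 2065 of 11651 genes (17.7%), so the call is not particular to Ntrk3. Control 1 is then the lone control and is assumed to vary like the cKO libraries. With astrocyte-like cells chosen by marker counts in place of clusters, Ntrk3 stood at 86.7, 106.7, 104.6 and 92.7 CPM, the groups overlapped, and the log2 fold change was 0.094. The astrocyte-like cells came from a pair of clusters in unequal shares, and cluster 17, with the higher Ntrk3 level, held 27, 217, 115 and 427 cells. Within cluster 11 Ntrk3 was at 43.6, 56.9, 70.6 and 67.0 CPM, and within cluster 17 at 68.5, 92.6, 127 and 97.6 CPM. The groups did not overlap in either, but the share of all genes that did likewise there was not computed. The control 1 value in cluster 17 rests on 17 counts. Over the 12 types tested, Ntrk3 had 7 negative and 5 positive log2 fold changes, from -0.33 to 0.63. Both cKO libraries were below both controls in cluster 6 and layer 5 pyramidal tract-like cells, where 16.1% and 13.1% of genes were. Both were above in upper layer-like and dividing-like cells, where 17.1% and 10.3% of genes were. Dividing-like cells pool clusters 5 and 9, and Ntrk3 was at 43.4, 53.9, 77.7 and 74.0 CPM in cluster 5 and at 143, 127, 148 and 111 CPM in cluster 9, where the groups overlapped. In interneuron neuroblast-like cells, too few to be fitted, it stood at 86.6 and 90.5 CPM in controls and 42.2 and 49.6 CPM in cKO. The control values there rest on 20 counts in control 1.

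**Figure D3:**
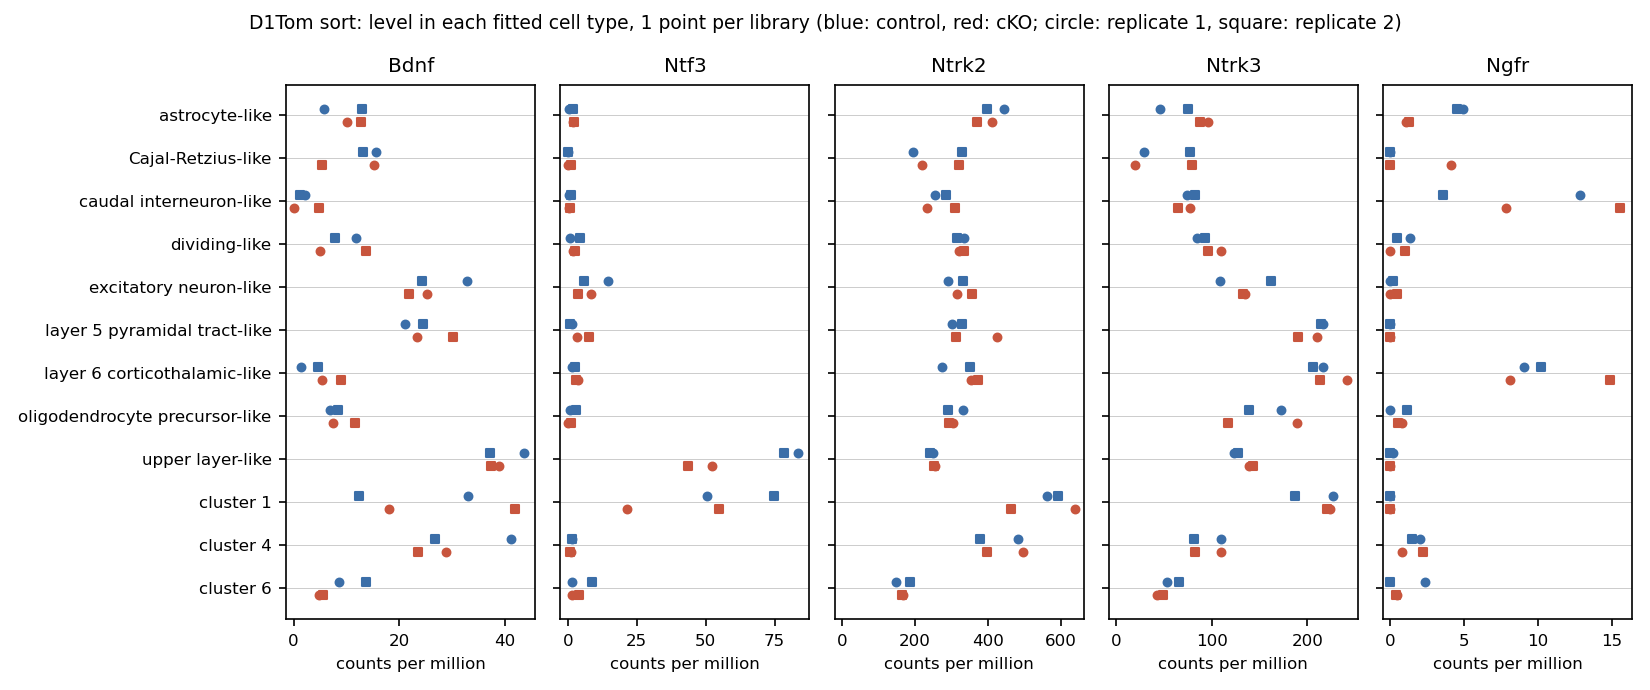
Level of each gene in CPM in the 12 fitted D1Tom cell types, 1 point per library (blue, control; red, cKO; circle, replicate 1; square, replicate 2). Ntf3 is concentrated in upper layer-like cells and cluster 1, Ntrk2 is high in cluster 1, cluster 4 and astrocyte-like cells, and Ntrk3 is high in layer 6 corticothalamic-like and layer 5 pyramidal tract-like cells and cluster 1.

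The kinase receptors overlapped widely. Of cells with an Ntrk3 count, 83.1%, 92.1%, 82.2% and 86.7% also had an Ntrk2 count in control 1, control 2, cKO 1 and cKO 2. Of cells with an Ntrk2 count, 45.8%, 61.6%, 45.2% and 50.2% had an Ntrk3 count. Over all cells, 75.4%, 86.4%, 71.9% and 79.9% had an Ntrk2 count, so the shares among cells with Ntrk3 were somewhat higher in each library.

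Ngfr, the p75 receptor, was sparse. It stood at 2.91 and 2.03 CPM in D1Tom controls and 1.29 and 1.98 CPM in cKO. Both cKO libraries were below both controls, but cKO 2 and control 2 were nearly equal. The log2 fold change was -0.50 (SE 0.42; edgeR adjusted p = 0.998) and ranged from -0.97 to -0.14 when a library was left out. Ngfr was counted in 157 cells of the 4 libraries. Its highest levels among fitted types were in layer 6 corticothalamic-like cells, at 9.03, 10.2, 8.14 and 14.9 CPM, and in caudal interneuron-like cells, at 12.9, 3.54, 7.82 and 15.6 CPM, and these ranges overlapped. No count was found in layer 5 pyramidal tract-like cells, cluster 1 or microglia-like cells.

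Within layer 6 corticothalamic-like cells, Ngfr went with markers of layer 6b, the remnant of the subplate beneath the cortex. Of cells with a count for at least 3 of the 7 measured layer 6b markers, 23 of 78 or 29.5% had an Ngfr count, at 23.9 CPM. Of the other cells, 14 of 394 or 3.55% had one, at 4.59 CPM. Cells with the markers were also deeper, at a median of 23088.5 counts against 12126, and the selection by counts favours deep cells, so the CPM is the fairer comparison. In each of the 4 libraries the CPM was higher in cells with the markers, at 30.2 against 2.91, 18.5 against 5.02, 13.0 against 6.86 and 32.3 against 5.99. In cKO 1 the group with the markers holds only 5 cells and 3 Ngfr counts. Over all layer 6 corticothalamic-like cells, 7.84% had an Ngfr count, against 4.12% of endothelial-like cells. After thinning to 1000 counts the shares were 0.640% and 1.12%, with overlapping intervals, so at that depth the layer 6 share was not above the endothelial one.

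Between genotypes, Ngfr was tested in 3 types. The log2 fold change was 0.23 (SE 0.52) in layer 6 corticothalamic-like and 0.40 in caudal interneuron-like cells. In astrocyte-like cells Ngfr was at 4.89 and 4.54 CPM in controls and 1.04 and 1.30 CPM in cKO, which rest on 12, 19, 3 and 6 counts. The groups did not overlap, where 20.1% of the genes tested in that type were lower in both cKO libraries. The log2 fold change was -1.90 (SE 0.61; edgeR adjusted p = 0.921). The share of astrocyte-like cells with an Ngfr count, 1.90%, was below that of endothelial-like cells, but endothelial-like cells were deeper. Endothelial-like cells stood at 0 and 2.77 CPM in controls and 0 and 3.25 CPM in cKO, from 0, 10, 0 and 5 counts. Astrocyte-like controls were above these values, and the astrocyte-like cKO libraries lay between them. Over the 4 libraries together Ngfr was at 2.37 CPM in endothelial-like and 0.0742 CPM in upper layer-like cells, which were of similar depth. Whether the endothelial-like or the astrocyte-like counts are free RNA was not tested. In medial interneuron-like cells Ngfr stood at 15.1 and 9.61 CPM in controls and at 0 in both cKO libraries, but all 18 counts came from 3 cells, too few to describe the type.

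Counted over all types, the members had 40 tests within D1Tom cell types, of which none passed, against 0.000796% of all tests over these types, 2 had an unadjusted p under 0.05, and DESeq2 called none. Log2 fold changes were negative in 20 and positive in 20. Both cKO libraries were below both controls in 5 tests and above in 5. Over all genes of the same types, 12.8% of tests were below and 12.8% above, so the members' counts are near the background.

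**Figure D4:**
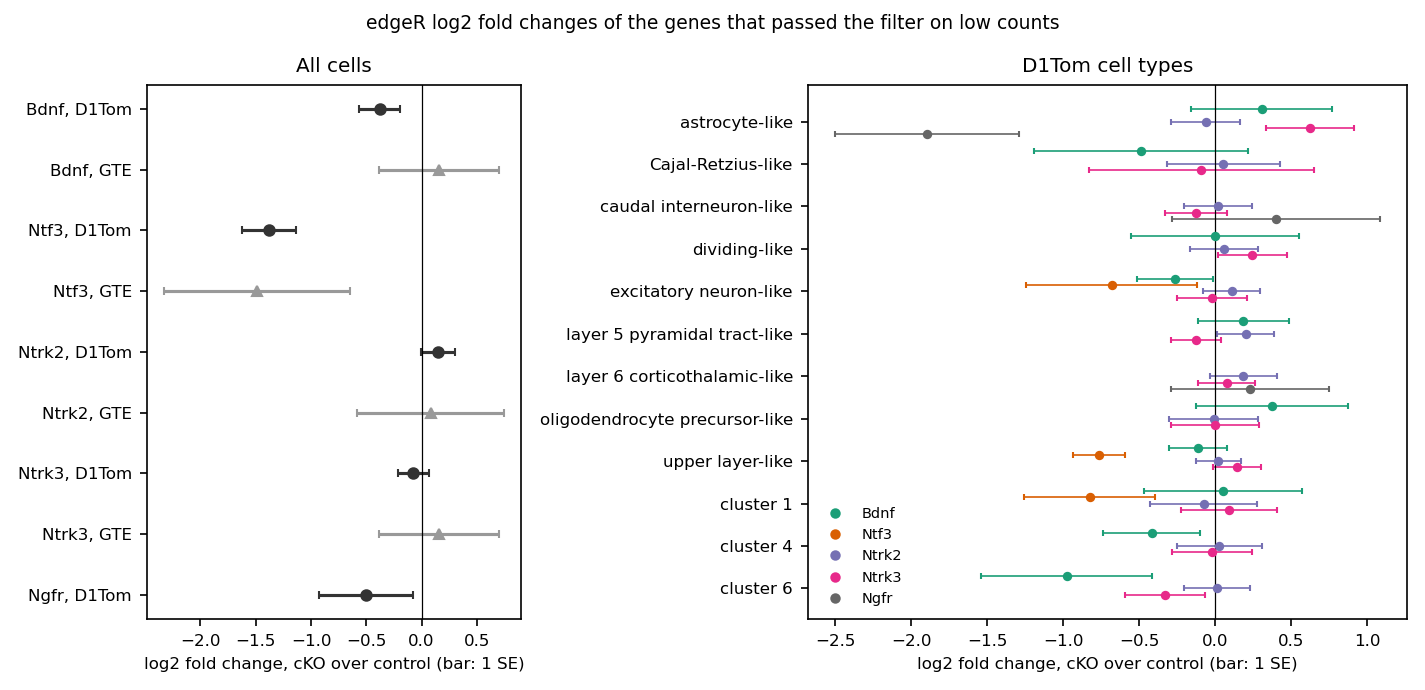
edgeR log2 fold changes of cKO over control with 1 SE for the genes that passed the filter on low counts, over all cells of each sort (left) and within D1Tom cell types (right). Ntf3 lies at -1.38 over all D1Tom cells and at -0.77 in upper layer-like cells, while Ntrk2 stays between -0.08 and 0.20 in every type.

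Genes with the most similar pattern were found by Pearson's r of log2(CPM + 1) means over the 12 fitted D1Tom types, among genes reaching 20 CPM in some type. The types share libraries and depth, and with 12 points among 9775 genes a high r is a description only. The genes nearest to Ntf3 were Lpl (r = 0.95), which codes for lipoprotein lipase, Hspb3 (0.94) and Rfx3 (0.93). Nearest to Bdnf were Bhlhe40 (0.86), Wwc1 (0.84) and Lhfp (0.82). Nearest to Ntrk2 were Asph (0.95), Surf4 (0.95) and Gramd4 (0.95), and nearest to Ntrk3 were Ptprj (0.94), Lrrc4b (0.93) and Srf (0.93). Nearest to Ngfr were Kctd12 (0.88), the layer 6b marker Cplx3 (0.84) and the layer 6 corticothalamic marker Hs3st4 (0.80).

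Of the other genes of neurotrophin signalling, 64 of 70 listed genes could be tested in D1Tom, and none passed or reached an unadjusted p under 0.05 with edgeR, and none passed with DESeq2. Log2 fold changes were positive for 34 and negative for 30, with a median of 0.02 against -0.01 over all genes, and 8 were below and 9 above both controls, near the 13.7% and 9.7% of all genes. Values are given from here in the order of both controls, then both cKO libraries. The values of abundant genes of each list follow, in CPM.

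Among 9 other receptors and co-receptors tested, 8 had negative log2 fold changes, with a median of -0.07. Lingo1, a partner of p75, had 136, 137, 139 and 84.4, with the low value in cKO 2 alone. Kidins220, a scaffold that both Trk receptors and p75 bind, had 148, 146, 147 and 123. The sorting receptor Sort1, which binds proneurotrophins, had 45.6, 48.1, 49.1 and 37.1 and its relative Sorl1 55.1, 60.2, 57.8 and 48.3. The groups of these 4 genes overlapped. Of 19 Trk adaptors and effectors 13 had positive values, with a median of 0.08. Grb2, the adaptor that links receptors to Ras, had 113, 111, 102 and 87.4 (log2 fold change -0.18), and both cKO libraries were below both controls. The phosphatase gene Ptpn11 had 65.5, 95.3, 74.4 and 90.1. The exchange factor gene Rapgef1 had 41.7, 56.1, 50.4 and 56.0 and the adaptor gene Sh2b1 40.5, 40.1, 40.1 and 34.4, and the groups of these 3 overlapped.

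Of 9 p75 partners 4 had positive values, with a median of -0.01. Ngfrap1, a p75-associated protein of the Bex family, had 725, 476, 623 and 411 and its relative Bex1 282, 199, 221 and 155, and both overlapped between groups. Maged1 had 179, 169, 186 and 180, and Arhgdia had 202, 200, 197 and 195. Of 9 genes that process proneurotrophins 6 had positive values, with a median of 0.09. The sorting enzyme gene Cpe had 896, 928, 898 and 1341. Pcsk2, a convertase of secretory granules, had 105, 101, 98.7 and 58.9, again with the low value in cKO 2. Plat, the tissue plasminogen activator, had 24.1, 31.6, 24.8 and 28.8 and the granule protein gene Scg2 26.5, 22.5, 34.3 and 19.3.

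Of the 10 regulators of Bdnf transcription, 6 had positive and 4 negative values, with a median of 0.06. Mef2c, an activity-regulated factor of excitatory neurons, had 1530, 1803, 1314 and 1043 (log2 fold change -0.45; edgeR adjusted p = 0.998), with both cKO libraries below both controls. The coactivator gene Crtc1 had 57.6, 54.5, 56.4 and 48.7. Arnt2, a partner of Npas4, had 74.3, 88.3, 80.4 and 92.5, and the groups of both genes overlapped. Of the 7 genes that feed back on ERK signalling downstream of Trk receptors, 3 had positive values, with a median of -0.0025. Dusp6, a phosphatase of ERK, had 98.0, 57.8, 50.1 and 53.6 (log2 fold change -0.50), and the high value lay in control 1. Spred1, an inhibitor of Ras signalling, had 103, 114, 134 and 142 (log2 fold change 0.42; edgeR adjusted p = 0.998), with both cKO libraries above both controls. Spred2 had 52.4, 61.2, 54.5 and 56.4 and Spry2 113, 122, 94.0 and 141, both overlapping between groups.

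Dissociation genes moved with control 1. Of 10 tested, 9 had negative log2 fold changes, with a median of -1.06, and 6 had both cKO libraries below both controls. The values were 243, 65.5, 74.6 and 62.7 for Jun, 161, 52.0, 51.8 and 46.6 for Egr1, 117, 32.1, 19.1 and 22.0 for Ier2, 92.5, 25.6, 20.3 and 14.5 for Junb, 70.9, 2.64, 2.51 and 2.53 for Fosb and 0.632, 1.06, 0.305 and 0.476 for Atf3. Bdnf, Ntf3, Ngfr and Dusp6 had their highest values in this same library, and the part of dissociation in them was not tested beyond leaving that library out.

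In GTE, none of the 4 members tested passed, against 4 of 12042 genes (0.0332%), none had an unadjusted p under 0.05, where 629 of all genes did, and DESeq2 called none. Bdnf was at 8.70 and 19.1 CPM in controls and 28.6 and 12.7 CPM in cKO (log2 fold change 0.16, SE 0.54). Ntf3 was at 4.27, 1.64, 1.97 and 1.06 CPM, from 26, 8, 10 and 6 counts (-1.49, SE 0.84; edgeR adjusted p = 0.964). Ntrk2 was at 169, 300, 447 and 220 CPM (0.08) and Ntrk3 at 40.9, 111, 158 and 67.0 CPM (0.16). These log2 fold changes come from fits with TMM scaling between libraries, which the CPM lack. The log2 ratios of mean CPM were 0.57 for Bdnf, -0.96 for Ntf3, 0.51 for Ntrk2 and 0.56 for Ntrk3. Ngfr had 1 count in all and was not tested. The groups overlapped for each of the 4 tested, where 6.67% of all genes were below both controls, 19.6% above and 26.2% either. Cluster 0, an astrocyte-like cluster, took 512 of its 607 cells from cKO 1, the library highest in Bdnf, Ntrk2 and Ntrk3, and the part of this mix in their levels was not tested. Within GTE astrocyte-like cells Bdnf was at 31.9, 41.8, 59.6 and 34.5 CPM and Ntrk2 at 523, 563, 679 and 505 CPM. Ntrk3 there was at 68.7, 177, 179 and 144 CPM, and the groups of all 3 genes overlapped.

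Of 16 tests of members within GTE cell types none passed, against 0.00644% of all such tests, none had an unadjusted p under 0.05, and DESeq2 called none. Both cKO libraries were above both controls in 2 tests and below in 0, against 17.5% and 9.42% of all tests over these types. The pathway lists had 59 genes tested in GTE, none called, 2 with an unadjusted p under 0.05, and a median log2 fold change of -0.19 against -0.05 over all genes.

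Whether the genotype difference itself differed between the sorts was tested as an interaction over all 8 libraries. None of the 5 members passed and none of 14026 genes did (0.0%), 452 genes had an unadjusted p under 0.05, and DESeq2 called 6 genes and no member. The interaction log2 values were 0.55 (SE 0.47) for Bdnf, -0.12 (SE 0.78) for Ntf3, -0.06 (SE 0.51) for Ntrk2 and 0.25 (SE 0.52) for Ntrk3. These errors are as large as most of the values, so a sizeable difference between the sorts could not have been detected.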

How the data were processed

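Single cells were profiled with a 10x Genomics Chromium kit in 8 libraries, grouped by the labels. The authors deposited 1 table per sort holding a whole-number count for every gene in every cell, beside per-cell fractions of mitochondrial and ribosomal counts that gave no result here. The submitters' processing notes name Cell Ranger 2.1.1, STAR 2.5.2b, featureCounts of Subread 1.6.2, UMI-tools 0.5.4 and the builds mm10 and GRCm38.p6. Values of 2 were 0.307 to 1.69 times as frequent as values of 1, so the deposited counts do not behave like plain molecules and no Poisson interval was used. Exact binomial intervals (Clopper-Pearson, 95%) cover counting error only.

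Cells with at least 500 counts were clustered (scanpy 1.11.5, Leiden resolution 1) without the members and listed genes, and a cluster was called "-like" only with at least 3 markers at 2-fold or more; names rebuilt here may differ from the study's. The doublet caller's threshold marked almost no cell, so none was removed, and an alternative left out the highest doublet scores. Sums of counts per library, over all cells and per type with at least 30 cells in each library, were tested with edgeR 4.0.16 (TMM, filterByExpr, quasi-likelihood, Benjamini-Hochberg at 0.05), with DESeq2 1.42.0 as an alternative. Named genes were all members, any listed gene called, for D1Tom the 4 most abundant genes of each list and those with groups apart by an absolute log2 fold change of at least 0.5, and the 3 genes most like each member; a few listed genes are not reported here. Members and lists were chosen with earlier results of these data known. The labels give same-numbered D1Tom libraries a shared preparation day, and their deviations correlated at 0.500 over 14508 genes, so these numbers pair. The labels do not give the number of animals in a library, so p-values measure only the spread between these libraries, which may be technical.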

Additional observations from a re-analysis of the deposited data

Results flagged for a closer look

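Ntrk3 differed in direction between D1Tom cell types, a difference that was not itself tested. Of 12 types, both cKO libraries were below both controls in 2 and above in 3. Over all genes of these types, 12.8% of tests were below and 12.8% above, so no result is drawn from these counts. Both cKO libraries were below both controls in cluster 6 (log2 fold change -0.33; 53.3 and 65.7 CPM against 43.0 and 48.6) and in layer 5 pyramidal tract-like cells (-0.13; 216 and 214 against 210 and 190). Both were above in upper layer-like (0.14; 123 and 127 against 139 and 143), dividing-like (0.24; 84.3 and 93.3 against 110 and 95.7) and astrocyte-like cells (0.63; 46.1 and 75.3 against 96.1 and 87.3). Dividing-like cells pool clusters 5 and 9, and in cluster 9 the groups overlapped (143 and 127 against 148 and 111). With astrocyte-like cells chosen by marker counts the groups overlapped too (86.7 and 106.7 against 104.6 and 92.7). None of these passed the edgeR test within its type.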

How the results depend on the processing

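Over all D1Tom cells 0 of 5 members were called with edgeR and 1, Ntf3, with DESeq2. The replicate block gave 0 member calls in every comparison, and it moved the count of all genes called from 0 to 1 in D1Tom and from 4 to 0 in GTE. The interaction also had 0 member calls under each alternative run. GTE replicate numbers share only a number (correlation -0.35); a crossed pairing, added after the data were seen, called 24 of 12042 genes and 0 members. DESeq2 called 20 genes in D1Tom, 0 in GTE and 6 in the interaction, and GTE had 18 genes called without the filter on low counts, 9 without the highest doublet scores and 1 on cells with a count. Leaving out each library gave 0 to 6 genes called in D1Tom and 1 to 27 in GTE. Leaving out each library gave 0 to 1 member calls within D1Tom types (Ntrk3 in astrocyte-like cells without control 2, log2 1.03, where 17.7% of all genes were called; range 0.32 to 1.03, and 0.094 with marker counts in place of clusters) and 0 to 1 within GTE types (Ntrk3 in dividing-like cells without control 2, 3.21, adjusted p = 0.0330 by edgeR, where 2.89% of all genes were called; range 0.17 to 3.21). The cause was not tested. Ntf3 over all D1Tom cells ranged from -1.62 to -1.17 without one library and Bdnf from -0.54 to -0.21. On cells with a count, Ntrk3 in D1Tom turned to 0.032 and Ntrk2 in GTE to -0.10. Without one library, GTE values ranged from -0.16 to 0.60 for Bdnf, -0.12 to 0.34 for Ntrk2 and -0.28 to 0.80 for Ntrk3, and interaction values from -0.78 to 1.07 for Ntf3, -0.23 to 0.13 for Ntrk2 and -0.16 to 0.81 for Ntrk3. The named type with the highest level was the same for 2 of 5 members by shares of cells thinned to 1000 counts, 1 at 500 and 2 at 2000, and for 5 with marker counts in place of clusters; at 1000 counts the share of Ngfr is within a few cells. Ntf3 was not tested in GTE without control 1 or on cells with a count, and a fit on GTE neuron-like cells only was not run for want of cells. GTE values rest on medians of only 1085.5 to 2982 counts per cell.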

Other observations

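In GTE, cluster 12, an unnamed cluster of 51 cells all from cKO 1, had Ntf3 at 56.5 CPM, from 8 of that library's 10 Ntf3 counts. Cluster 12 had Ntrk2 at 219 CPM and Ntrk3 at 7.06 CPM.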
